A study of Mus musculus with 9 samples.

Results

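The genes described here are 56 developmental homeobox genes that lie outside the Hox clusters, chosen by name from 48440 genes counted in mouse embryonic stem cells. They comprise 17 genes of the NK-like class (Nkx, Tlx, Msx, En, Hhex, Barx1 and Lbx1 among them), 9 LIM genes (Lhx and Isl), 8 TALE genes (Irx and Meis), 6 paired-type genes (Pitx, Otx1, Gsc, Mixl1 and Alx4), 6 Dlx genes, 5 sine oculis genes (Six2 to Six6) and 5 Cdx or Gbx genes. All 56 are annotated as protein-coding and they lie on 15 chromosomes. Their level was followed through 3 groups of 3 libraries, each library described by the submitters as a biological replicate. All 9 libraries came from J1 mouse embryonic stem cells of genotype Suz12-AID, in which Suz12 is fused to an auxin-inducible degron (AID), so that auxin leads to loss of the protein. The labels do not say whether the line is a single clone. Cells of every group grew on gelatin in medium with 15% fetal bovine serum, leukemia inhibitory factor and the kinase inhibitors PD0325901 (1 µM) and CHIR99021 (3 µM), which keep stem cells undifferentiated. The labels describe Mock no further. The Auxin group received indole-3-acetic acid at 50 µM for 96 h. The Re-introduction group also received 50 µM for 96 h and then had auxin washed out for 4.5 h. The tag was therefore present in the Mock cells too, and an untagged parental line was not analysed here.

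Homeobox genes encode transcription factors that bind DNA through a homeodomain and give cells their position and type in the embryo. Polycomb repressive complex 2 (PRC2) is a histone H3 methyltransferase that needs Suz12 as one of its core components. In embryonic stem cells PRC2 is known to occupy the promoters of many developmental regulators, homeobox genes among them, typically at promoters rich in CG dinucleotides. The comparisons ask which of these genes differ between cells with and without auxin, and how they stand a few hours after auxin is withdrawn. No chromatin measurement was analysed here, so no statement is made about which genes are bound.

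Polyadenylated RNA was sequenced as pairs of 75-base reads, and the deposited values are read counts per gene. Total counts ranged from 44341283 to 113931419 per library, with each mate of a pair counted. Levels below are CPM, read counts relative to library size, scaled with TMM factors, and are given as mean ± SD of 3 libraries where an error is shown. The Suz12 transcript itself stood at 133 ± 6.62 CPM in Mock, 141 ± 16.9 in Auxin and 168 ± 4.47 in Re-introduction, which does not check depletion because the degron acts on the protein. All 14 pluripotency markers, Pou5f1 and Nanog among them, had counts in every library. Their summed levels were 6730 to 6950 CPM in Mock, 8250 to 8900 in Auxin and 6490 to 6560 in Re-introduction. The markers did not move together. At an adjusted p-value under 0.05 in the edgeR test used below, 8 of them rose from Mock to Auxin and 4 fell. Of all tested genes 38.4% rose and 34.8% fell. In Re-introduction 3 markers were called higher and 9 lower than in Auxin, beside 25.5% and 25.5% of all tested genes. Against Mock 3 were called higher and 5 lower in Re-introduction, beside 34.7% and 33.4%. Pou5f1 was among those that fell from Mock to Auxin, with means of 844 CPM in Mock, 583 in Auxin and 578 in Re-introduction. Mitochondrial genes took 3.79% to 4.0% of counts in Mock and Auxin libraries and 4.58% to 4.80% in Re-introduction libraries. Expression also varied with exon length between the groups. The slope of log2 level on log2 exon length, against the mean of all libraries, was -0.246, -0.168 and -0.177 in the Mock libraries. It was 0.15, 0.0133 and 0.154 in the Auxin libraries and 0.0833, 0.0968 and 0.0941 in the Re-introduction libraries. Values with these trends removed are given below where they move a result.

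Of the 56 genes, 37 had enough counts to be tested and 19 did not. Calls are those with an adjusted p-value under 0.05 in the edgeR quasi-likelihood test of 20838 genes. In Auxin against Mock, 24 of the 37 were called, 11 of them higher and 13 lower in Auxin, where 73.2% of all tested genes were called (38.4% higher and 34.8% lower). In Re-introduction against Auxin, 19 were called, 9 higher and 10 lower, against 50.9% of all tested genes (25.5% higher and 25.5% lower). In Re-introduction against Mock, 20 were called, 6 higher and 14 lower, against 68.1% of all tested genes (34.7% higher and 33.4% lower). As shares of the 37, these calls were 64.9%, 51.4% and 54.1%, which for the first and last lie below the shares of all tested genes and for the second beside it. Among the 22 genes above the filter level of 0.131 CPM (10 counts in the median library) in every library, the shares were 81.8%, 63.6% and 68.2%. The matching share of all genes above that level in every library was not computed, so these shares have no direct background. With a stricter filter of at least 1 CPM in 3 libraries, 12702, 9694 and 12248 of 15762 genes were called. With total counts in place of TMM factors the split over all tested genes shifted from 7996 higher and 7261 lower in Auxin against Mock to 9748 higher and 5662 lower.

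Counting only changes of at least 2-fold, 9 of the homeobox genes were called higher and 7 lower in Auxin against Mock, where 19.8% and 12.0% of all tested genes were. In Re-introduction against Auxin 3 were called higher and 6 lower by this rule, beside 4.16% and 6.82% of all tested genes. In Re-introduction against Mock 4 were called higher and 6 lower, beside 15.0% and 7.43%. All libraries of the groups were apart for 12 genes higher and 14 lower in Auxin against Mock (38.4% and 35.8% of all tested genes), for 10 higher and 13 lower in Re-introduction against Auxin (28.8% and 29.4%), and for 7 higher and 15 lower in Re-introduction against Mock (38.2% and 37.0%). The median log2 fold change over the 37 genes was -0.02 in Auxin against Mock, 0.03 in Re-introduction against Auxin and -0.16 in Re-introduction against Mock. Over all tested genes the medians were 0.05, 0.003 and 0.03. The 3 comparisons share libraries, so a gene with an extreme Auxin value appears with opposite signs in the first 2 of them without further evidence. The filter itself favours a gene that is high in a single group. Of the 37 genes, 22 exceeded its level in every library of all 3 groups, 5 did so in 2 groups, 7 in 1 group and 3 in none. Of the 7, Dlx5 and Pitx1 (Auxin) and Cdx4 (Mock) were called, each in comparisons with the group that carried it through the filter, so their calls are given as values and support nothing further. In bulk RNA a lower level can come from fewer cells that express a gene or from less RNA per cell, and these cannot be told apart.

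**Figure D1:**
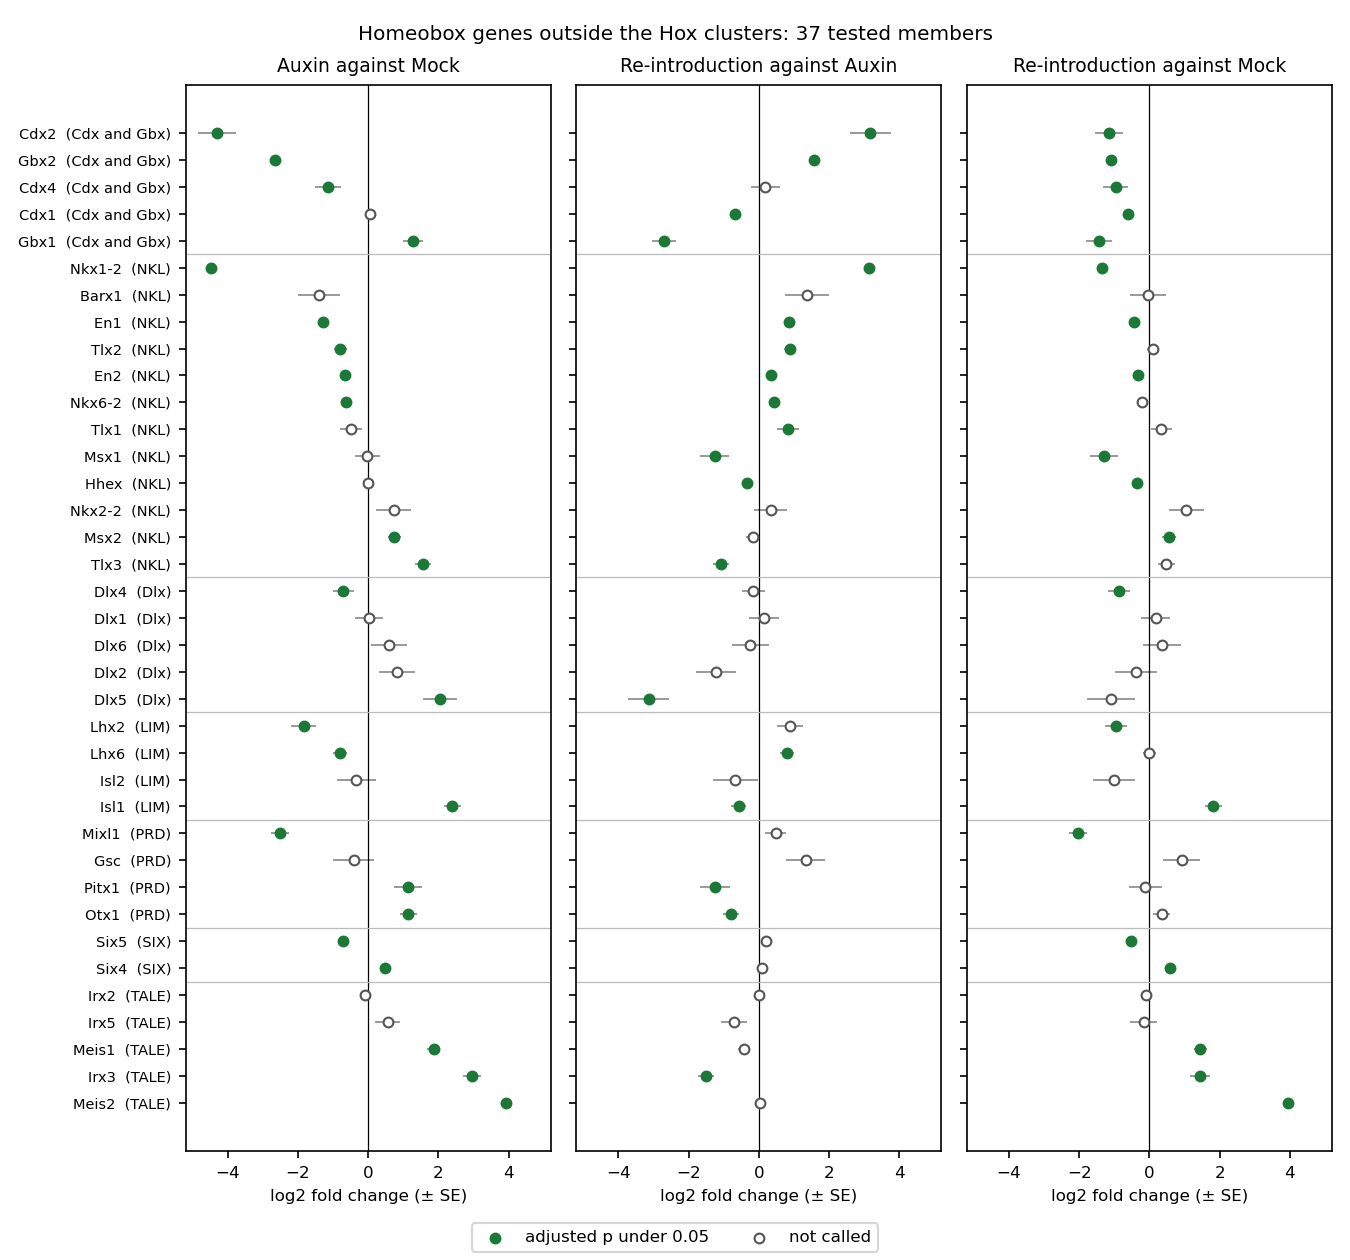
Log2 fold changes of the 37 tested homeobox genes in Auxin against Mock, Re-introduction against Auxin and Re-introduction against Mock, with standard errors as bars and called genes marked. The changes in Auxin run from -4.47 for Nkx1-2 to 3.91 for Meis2, and genes on both sides of 0 were called in each comparison.

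In Mock, the homeobox genes differed widely in level. Per kilobase of exon, the highest in Mock were Cdx1 at 29.6 CPM per kb, Gbx2 at 9.74, Nkx1-2 at 9.25, Nkx6-2 at 4.93, En2 at 4.85 and Six4 at 3.63. Irx2 followed at 3.56, close enough to Six4 that their order is not resolved by 3 libraries. The summed level of the 56 genes hardly moved between groups, at 207 to 213 CPM in Mock libraries, 201 to 208 in Auxin and 208 to 214 in Re-introduction. Single genes nonetheless changed by large amounts in both directions.

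**Figure D2:**
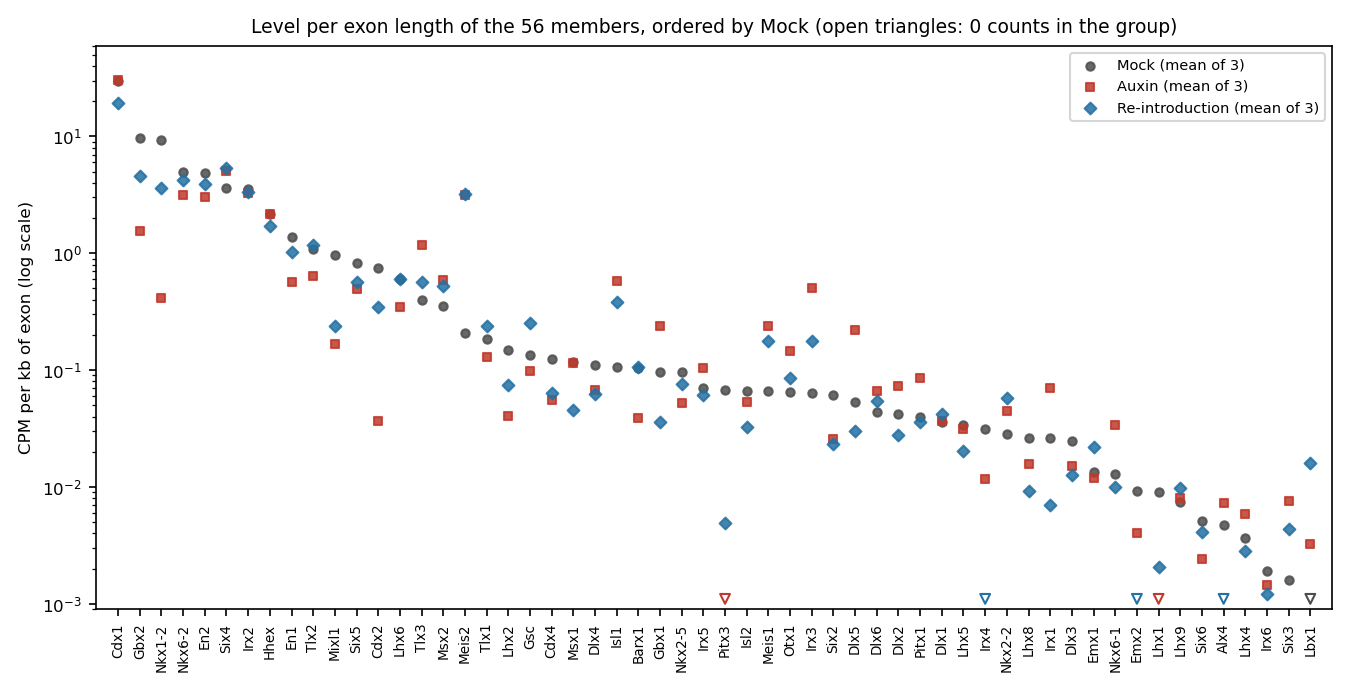
Mean level of the homeobox genes in Mock, in CPM per kilobase of exon on a log axis and in rank order, with the Auxin and Re-introduction means at the same positions and open triangles for groups with 0 counts. Cdx1 stands first at 29.6 CPM per kb, and Nkx1-2 goes from 9.25 CPM per kb in Mock to 0.415 in Auxin.

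The upstream sequences of 4 of these genes are shown because they are the largest called falls (Nkx1-2 and Cdx2) and rises (Isl1 and Meis1) in Auxin among genes with a sequence table entry and at most 30 bases of coding-gene exon in the window. Each is the stretch upstream of the RefSeq start (build GRCm38.p6), read 5′ to 3′ on the gene's strand, with exon bases left off its end and every CG dinucleotide in capitals. The Nkx1-2 stretch is chr7:132599638-132599887, minus strand, with 19 CG in 250 bases. The Cdx2 stretch is chr5:147307271-147307499, minus strand, with 11 CG in 229 bases. The Isl1 stretch is chr13:116309690-116309938, minus strand, with 33 CG in 249 bases. The Meis1 stretch is chr11:19018986-19019219, minus strand, with 12 CG in 234 bases.
Nkx1-2: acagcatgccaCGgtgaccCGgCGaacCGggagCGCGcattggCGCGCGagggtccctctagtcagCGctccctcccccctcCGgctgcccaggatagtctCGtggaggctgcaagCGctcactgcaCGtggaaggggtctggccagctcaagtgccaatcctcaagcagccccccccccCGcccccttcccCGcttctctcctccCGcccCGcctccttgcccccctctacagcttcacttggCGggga
Cdx2: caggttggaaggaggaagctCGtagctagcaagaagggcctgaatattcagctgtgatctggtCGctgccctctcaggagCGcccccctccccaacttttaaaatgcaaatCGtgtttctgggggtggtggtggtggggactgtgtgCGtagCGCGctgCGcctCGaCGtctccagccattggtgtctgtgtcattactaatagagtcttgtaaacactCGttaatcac
Isl1: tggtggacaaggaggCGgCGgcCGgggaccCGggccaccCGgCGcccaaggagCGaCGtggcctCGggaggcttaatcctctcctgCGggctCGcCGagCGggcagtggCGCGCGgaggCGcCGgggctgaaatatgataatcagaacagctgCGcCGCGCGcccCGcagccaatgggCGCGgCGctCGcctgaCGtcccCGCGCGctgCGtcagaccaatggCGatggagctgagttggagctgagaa
Meis1: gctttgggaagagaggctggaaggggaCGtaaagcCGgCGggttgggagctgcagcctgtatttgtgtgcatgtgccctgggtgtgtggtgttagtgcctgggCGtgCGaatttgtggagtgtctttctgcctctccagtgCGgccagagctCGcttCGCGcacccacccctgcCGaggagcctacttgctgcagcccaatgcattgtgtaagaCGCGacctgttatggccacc

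All 39 homeobox genes with a table entry had at least 1 CG in the 250 bases upstream of their start, as did 98.7% of the 12294 tested genes with an entry and 91.7% of all 27025 entries. The number of CG per 250 bases ran from 4 to 40 with a median of 17.0, beside medians of 15.0 over tested genes and 6.0 over all entries. It was 13.0 in the median of 7 genes called higher in Auxin, 18.0 over 9 called lower, 21.0 over 10 not called and 17.0 over 13 not tested. Of the sequences shown, the richest (Isl1) belongs to a gene that rose, and the other 3 hold 11 to 19 CG. The motif TATAAA, searched on both strands, was found for Meis2 and Gsc, 5.13% of the homeobox genes against 6.65% of tested genes and 13.0% of all entries. Unlike the sequences shown, these windows were not cleared of exon bases of protein-coding genes. All 250 bases were such exon for Dlx1, Nkx6-1, Emx1, Irx3, Msx2 and Emx2, as were 170 for Meis2 and 94 for Gsc. The letter counts are descriptions of the windows only.

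Among genes of the posterior axis and primitive streak, Nkx1-2, Cdx2 and Mixl1 fell in Auxin, and the first 2 were higher again in Re-introduction. Nkx1-2 (ENSMUSG00000048528, chr7:132594878-132599637), a gene of the posterior growth zone that gives rise to spinal cord, stood at 30.2, 30.8 and 29.6 CPM in the Mock libraries. It stood at 1.33, 1.61 and 1.12 CPM in Auxin and at 11.5, 12.7 and 11.5 CPM in Re-introduction. The 3 groups did not overlap, and Re-introduction lay between the others. By the edgeR test the log2 fold change was -4.47 (SE 0.107, adjusted p = 1.17e-10) in Auxin against Mock, 3.12 (SE 0.106, adjusted p = 3.7e-09) in Re-introduction against Auxin and -1.35 (adjusted p = 2.33e-07) in Re-introduction against Mock.

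Cdx2 (chr5:147300805-147307270), a caudal factor of posterior patterning and of the trophoblast lineage, was at 1.87, 1.4 and 1.82 CPM in Mock. Its Auxin values were 0.0244, 0.223 and 0 CPM, and its Re-introduction values 0.765, 0.936 and 0.649 CPM. All Auxin libraries lay below every other library, although Auxin replicate 2 held most of the group's 19 counts. The edgeR log2 fold change was -4.32 (SE 0.542, adjusted p = 2.27e-05) in Auxin against Mock and 3.18 (SE 0.591, adjusted p = 0.000996) in Re-introduction against Auxin. Without Auxin replicate 2 these were -6.84 and 5.67. The lower level in Re-introduction than in Mock (-1.14, adjusted p = 0.0244) was no longer called in 6 of 15 alternative fits, among them those without Mock replicate 1 or 3 or Re-introduction replicate 1 or 3 (adjusted p = 0.063 to 0.0855).

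Mixl1, a paired-type factor of the primitive streak, was at 2.05, 2.1 and 2.52 CPM in Mock, 0.5, 0.328 and 0.321 in Auxin, with 0.703, 0.601 and 0.331 in Re-introduction. Unlike Nkx1-2, its Auxin and Re-introduction libraries overlapped. By edgeR the log2 fold change was -2.52 (SE 0.26, adjusted p = 4.48e-06) against Mock in Auxin and -2.04 (SE 0.254, adjusted p = 3.04e-05) in Re-introduction, while that between Auxin and Re-introduction was 0.48 (adjusted p = 0.21). Without Re-introduction replicate 3 the last was 0.76 (adjusted p = 0.036, edgeR). Gsc, another streak and organizer gene, had 29 to 67 counts per group and was called in no comparison. Its largest difference was 1.34 in Re-introduction against Auxin (adjusted p = 0.0654), which became 2.00 (adjusted p = 0.0124) without Auxin replicate 2.

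The other caudal genes had patterns of their own. Cdx1, a caudal factor of trunk patterning, had the highest level per length of all 56 genes, with 57.3, 51 and 47 CPM in Mock and 50.6, 58.8 and 51.5 in Auxin, which overlap. The difference of 0.05 between these groups became 0.26 (adjusted p = 0.00817) with total counts in place of TMM factors and 0.48 (adjusted p = 2.97e-06) with length and GC trends removed. Re-introduction libraries were lower, at 34.1, 35.2 and 32.2 CPM, with edgeR log2 fold changes of -0.67 (adjusted p = 5.8e-05) against Auxin and -0.61 (adjusted p = 5.81e-05) against Mock. Cdx4 was much scarcer, at 0.244 ± 0.079 CPM in Mock, the only group wholly above the filter level, and was called lower in Auxin (-1.15, adjusted p = 0.0138) and in Re-introduction (-0.96, adjusted p = 0.0347, edgeR). The first call was lost without Mock replicate 1 (adjusted p = 0.0693) or Auxin replicate 3 (adjusted p = 0.0548). The second was lost in 11 of 13 alternative fits, among them those without Mock replicate 1 or 3 or any single Re-introduction library (adjusted p = 0.067 to 0.139). All 5 Cdx and Gbx genes were called lower in Re-introduction than in Mock, beside 33.4% of all tested genes, with the losses of the Cdx2 and Cdx4 calls just given. Cdx4 passed the filter through Mock alone, where it was highest, so its call supports nothing further. Of 8 mesoderm markers, 7 were tested. In Auxin against Mock 3 were called higher (Tbx5, Kdr and Pdgfra) and 2 lower (T and Eomes), beside 38.4% and 34.8% of all tested genes. T was at 9.82 CPM in Mock, 0.255 in Auxin and 1.36 in Re-introduction, while Tbx5 was at 0.022, 1.57 and 1.27 CPM. Their summed level was 48.2 to 49 CPM in Mock, 30.9 to 33.5 in Auxin and 72.2 to 75.3 in Re-introduction, of which Eomes made up 35.4, 25.6 and 66.9 CPM on average, with Mesp1 and Tbx5 at 0 in a library. Their part in the results for Nkx1-2, Cdx2 and Mixl1 was not tested.

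**Figure D3:**
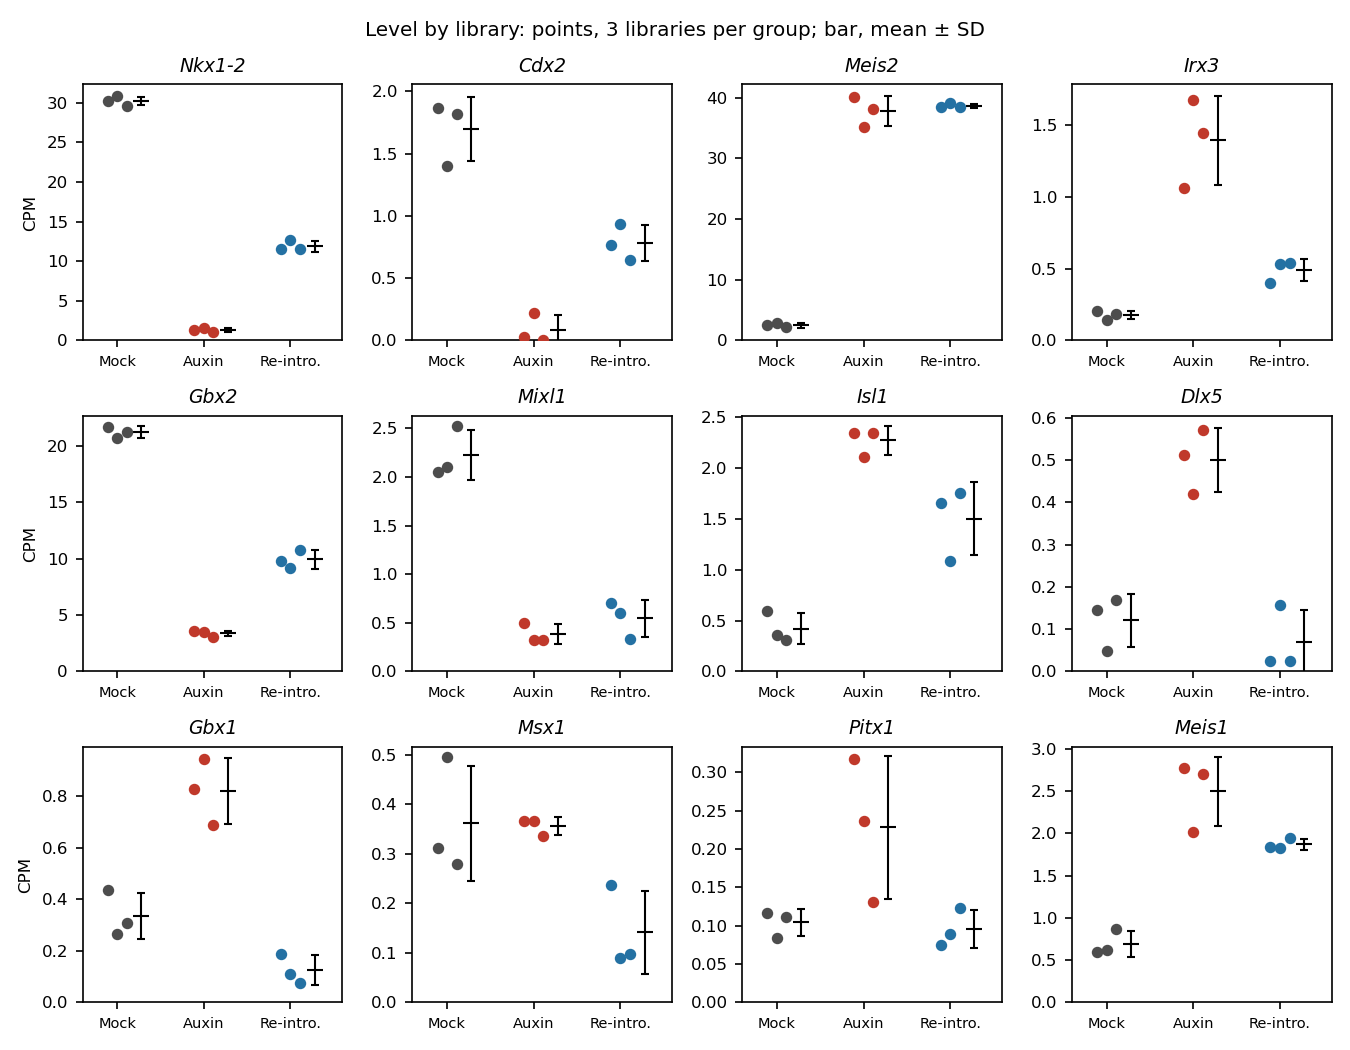
Level in CPM of the homeobox genes with the largest changes in each of the 9 libraries, grouped as Mock, Auxin and Re-introduction, on a linear axis from 0 with its own scale in each panel, and with mean ± SD as bars. Nkx1-2 shows 3 separate groups, while the Auxin and Re-introduction points of Meis2 lie together above Mock.

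Gbx2, En1 and En2 fell in Auxin and were higher again in Re-introduction, while Gbx1 and Otx1 rose in Auxin. Gbx2 (chr1:89927956-89931179), which patterns the anterior hindbrain and is also expressed in naive stem cells, was at 21.7, 20.7 and 21.2 CPM in Mock. In Auxin it was at 3.55, 3.48 and 3.08 CPM, and in Re-introduction at 9.76, 9.18 and 10.8 CPM, with no overlap between any groups. The edgeR log2 fold change was -2.65 (SE 0.084, adjusted p = 5.63e-10) in Auxin against Mock, 1.56 (adjusted p = 1.04e-07) in Re-introduction against Auxin and -1.09 (adjusted p = 4.58e-07) in Re-introduction against Mock. Exon sequence of Gbx2 is shared with D130058E05Rik on the opposite strand, which had 341, 334 and 435 counts in Mock, Auxin and Re-introduction and was not called in Auxin against Mock.

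En2, an engrailed repressor of midbrain and cerebellum, stood at 16.3, 17.5 and 17.7 CPM in Mock, 11.2, 10.9 and 10.5 in Auxin, with 13.2, 14.7 and 13.2 in Re-introduction. Its changes were smaller than those of Gbx2, at -0.66 (adjusted p = 3.33e-06) in Auxin against Mock and 0.34 (adjusted p = 0.00149) in Re-introduction against Auxin by edgeR. En1, its paralogue, went from 3.64 ± 0.239 CPM in Mock to 1.48 ± 0.258 in Auxin and 2.67 ± 0.178 in Re-introduction. Both engrailed genes were below Mock in Re-introduction, by 0.44 (En1) and 0.32 (En2) on the log2 scale, calls that were lost with trends of exon length and GC content removed.

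Gbx1, a paralogue of Gbx2 in hindbrain and spinal cord, moved the other way, with 0.437, 0.266 and 0.308 CPM in Mock and 0.829, 0.945 and 0.687 in Auxin. In Re-introduction it was at 0.188, 0.111 and 0.0735 CPM, below both other groups. The edgeR log2 fold changes were 1.27 (adjusted p = 0.00206), -2.69 (adjusted p = 7.23e-05) and, against Mock, -1.43 (adjusted p = 0.00551). Otx1, a forebrain and midbrain factor, rose from 0.355 ± 0.0936 to 0.794 ± 0.0744 CPM in Auxin (1.15, adjusted p = 0.000851) and was lower again in Re-introduction (-0.79, adjusted p = 0.0141), a call lost without Re-introduction replicate 1 (adjusted p = 0.0581). Its Re-introduction level of 0.461 ± 0.0512 CPM was not called different from Mock. Its paralogue Otx2, which is not among the 56 genes and is named after its values were seen, stood at 6 CPM in Mock, 50.6 in Auxin and 45.3 in Re-introduction.

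The TALE genes Meis1, Meis2 and Irx3 rose in Auxin, while Irx2 and Irx5 were not called. That is 3 of 5 tested TALE genes higher and 0 lower, beside 38.4% and 34.8% of all tested genes. Meis2 (chr2:115863064-116065839), a partner of Hox and Pbx proteins in limb and brain, was at 2.47, 2.92 and 2.13 CPM in Mock and 40.1, 35.2 and 38.2 CPM in Auxin. It was at 38.5, 39.1 and 38.5 CPM in Re-introduction, within the range of Auxin. The edgeR log2 fold change was 3.91 (SE 0.1, adjusted p = 1.64e-10) in Auxin against Mock, 3.94 (SE 0.101, adjusted p = 9.28e-10) in Re-introduction against Mock and 0.03 (SE 0.0844, adjusted p = 0.776) between Auxin and Re-introduction. Meis2 has the longest exon sequence of the 56 genes, 12043 bases, and with trends of exon length and GC content removed the rise was 3.24 in both groups.

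Meis1, its paralogue in haematopoietic and limb progenitors, was at 0.592, 0.616 and 0.867 CPM in Mock, 2.77, 2.02 and 2.7 in Auxin, with 1.84, 1.83 and 1.95 in Re-introduction. Its edgeR log2 fold change was 1.87 (SE 0.18, adjusted p = 2.57e-06) in Auxin and 1.45 (SE 0.185, adjusted p = 3.6e-05) in Re-introduction, each against Mock. The Re-introduction libraries lay below the Auxin libraries without a call (-0.41, adjusted p = 0.0594). It was called in 6 alternative fits, as without Auxin replicate 2 (-0.56, adjusted p = 0.00757). Its exons are also long, and with both trends removed the 2 changes against Mock were 1.23 and 0.76.

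Irx3 (chr8:91798525-91802067), an Iroquois factor of neural and limb patterning, was at 0.204, 0.145 and 0.182 CPM in Mock and 1.06, 1.68 and 1.45 in Auxin. Its Re-introduction values of 0.402, 0.535 and 0.539 CPM fell between the groups without overlap. The edgeR log2 fold change was 2.96 (SE 0.256, adjusted p = 1.01e-06) in Auxin against Mock, -1.51 (SE 0.23, adjusted p = 0.000247) in Re-introduction against Auxin and 1.45 (SE 0.283, adjusted p = 0.000876) in Re-introduction against Mock. Irx3 thus stood about midway between Mock and Auxin on the log2 scale, whereas Meis2 stood at its Auxin level. Irx2, in contrast, was expressed at 11.3, 11.4 and 12.4 CPM in Mock, 11, 11 and 10.6 in Auxin, with 10.5, 11.4 and 10.9 in Re-introduction, and was called in no comparison. Irx5, at 0.193 to 0.324 CPM on average, was not called either.

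Isl1 was the LIM gene that rose, while Lhx2 and Lhx6 fell. Isl1 (chr13:116298281-116309689), a factor of motor neurons and cardiac progenitors, was at 0.592, 0.362 and 0.308 CPM in Mock, 2.35, 2.11 and 2.35 in Auxin, with 1.66, 1.09 and 1.76 in Re-introduction. The groups did not overlap, and the edgeR log2 fold change was 2.39 (SE 0.241, adjusted p = 3.53e-06) in Auxin and 1.83 (SE 0.248, adjusted p = 5.96e-05) in Re-introduction, each against Mock. The fall between Auxin and Re-introduction (-0.57, adjusted p = 0.0451) was lost without Auxin replicate 1 or 3 or Re-introduction replicate 1 or 2 (adjusted p = 0.0699 to 0.147). Lhx2, a forebrain and eye factor, went from 0.652 ± 0.168 CPM in Mock to 0.178 ± 0.0657 in Auxin (-1.84, adjusted p = 0.000516). Its Re-introduction level of 0.325 ± 0.0942 CPM was not called different from Auxin (adjusted p = 0.0699). It was called lower than Mock (-0.96, adjusted p = 0.0208), a call lost without Mock replicate 2 or Re-introduction replicate 1 or 2 (adjusted p = 0.0643 to 0.0785). Lhx6, a factor of forebrain interneurons, fell by 0.81 on the log2 scale in Auxin (adjusted p = 0.00361) and stood at 2.87 ± 0.584 CPM in Re-introduction beside 2.91 ± 0.378 in Mock. Isl2, with 15 to 38 counts per group, was not called, although without Re-introduction replicate 3 it was lower in Re-introduction than in Mock (-2.12, adjusted p = 0.0307, edgeR).

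Among the remaining NK-like genes, changes were mostly below 2-fold. Nkx6-2, a factor of ventral neural progenitors and oligodendrocytes, was at 10.2, 9.15 and 8.85 CPM in Mock, 5.68, 6.65 and 5.71 in Auxin, with 7.63, 7.97 and 8.82 in Re-introduction. It fell by 0.64 in Auxin (adjusted p = 7.31e-05) and was 0.44 higher in Re-introduction than in Auxin (adjusted p = 0.00264, edgeR). It shares exon sequence with Inpp5a on the opposite strand, which rose by 0.85 in Auxin. Tlx2, of the enteric nervous system, fell from 1.73 ± 0.374 to 1.01 ± 0.0266 CPM and stood at 1.85 ± 0.207 CPM in Re-introduction. Its fall of 0.79 on the log2 scale was -0.32 and not called (adjusted p = 0.0936, edgeR) with length and GC trends removed. Tlx3, a selector of excitatory spinal neurons, did the reverse, from 0.611 ± 0.161 to 1.8 ± 0.0909 and then 0.87 ± 0.243 CPM, with edgeR log2 changes of 1.56 (adjusted p = 6.74e-05) and -1.09 (adjusted p = 0.00189). Tlx1, a spleen factor, was called only in Re-introduction against Auxin (0.82, adjusted p = 0.0474), a call lost in 11 of 14 alternative fits, among them those without Auxin replicate 2 or 3 or any single Re-introduction library (adjusted p = 0.0678 to 0.139).

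The muscle-segment genes Msx1 and Msx2, which act in limb buds and neural crest, differed from each other. Msx2 rose from 1.17 ± 0.13 CPM in Mock to 1.94 ± 0.487 in Auxin (0.74, adjusted p = 0.00406) and was above Mock in Re-introduction, at 1.7 ± 0.188 CPM. The latter call (adjusted p = 0.0219) was lost without Mock replicate 1 or Re-introduction replicate 1 or 3 (adjusted p = 0.0691 to 0.0964). Msx1 was at 0.311, 0.495 and 0.28 CPM in Mock and 0.366, 0.367 and 0.336 in Auxin, which overlap. In Re-introduction it was lower, at 0.238, 0.0891 and 0.098 CPM, with edgeR log2 fold changes of -1.26 against Auxin (adjusted p = 0.0219) and -1.28 against Mock (adjusted p = 0.0139). Without Re-introduction replicate 1 these were -1.91 and -1.94. The first call was lost without Auxin replicate 1 or Re-introduction replicate 2 or 3, and the second without Mock replicate 2 or Re-introduction replicate 3 (adjusted p = 0.0525 to 0.0912). Hhex, an anterior endoderm and blood factor, was at 4.2 ± 0.14 CPM in Mock, 4.16 ± 0.39 in Auxin and 3.3 ± 0.223 in Re-introduction. It fell in Re-introduction by 0.34 against Auxin (adjusted p = 0.0155, edgeR), a call lost without Re-introduction replicate 3 (adjusted p = 0.0525). Between Auxin and Mock its difference of -0.01 became 0.224 with the length trend removed and 0.239 with length and GC trends removed, both called. Barx1 and Nkx2-2 were called in no comparison, with Barx1 at -1.41 (adjusted p = 0.0525) in Auxin against Mock. Without Mock replicate 2 or Auxin replicate 3 the latter was called (adjusted p = 0.0257 and 0.039, edgeR).

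The Dlx genes, distal-less factors of branchial arches and forebrain, were scarce throughout, and Dlx5 alone was called at 2-fold or more. Dlx5 (chr6:6877805-6882085) was at 0.146, 0.0483 and 0.168 CPM in Mock, 0.512, 0.42 and 0.57 in Auxin, with 0.0251, 0.156 and 0.0245 in Re-introduction. All Auxin libraries lay above the rest, and Auxin was the only group wholly above the filter level. By edgeR the log2 fold change of Dlx5 was 2.04 (SE 0.49, adjusted p = 0.00288) in Auxin against Mock and -3.13 (SE 0.588, adjusted p = 0.00105) in Re-introduction against Auxin. Without Re-introduction replicate 2 the latter was -4.25, and the difference from Mock, not called with all libraries (-1.09, adjusted p = 0.18), became -2.21 (adjusted p = 0.0193). Dlx4 was called lower in Auxin (-0.72, adjusted p = 0.0487), and in Re-introduction (-0.87, adjusted p = 0.0267). These calls were lost in 11 and 6 of 14 alternative fits, including those without Mock replicate 1 or 2, and those without replicate 1 or 3 of the other group (adjusted p = 0.0518 to 0.161). Dlx1, Dlx2 and Dlx6 were not called. Dlx1 shares exon sequence with Dlx1as on the opposite strand, which rose by 1.625 in Auxin against Mock (adjusted p = 0.000723, edgeR). Dlx4os, which overlaps Dlx4 in the same way, was not called there (adjusted p = 0.153, edgeR).

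Of the remaining paired-type and sine oculis genes, Six4 was called higher and Six5 lower in Auxin. Pitx1, a hindlimb and pituitary factor, was at 0.116, 0.0845 and 0.112 CPM in Mock, 0.317, 0.236 and 0.131 in Auxin, with 0.0753, 0.0891 and 0.123 in Re-introduction. Auxin, where it was highest, was the only group wholly above the filter level. Its edgeR differences of 1.13 (adjusted p = 0.0247) and -1.24 (adjusted p = 0.03) were each lost in 7 of 13 alternative fits, including the leave-one-out fits other than those without Auxin replicate 3 and, for the second difference, Re-introduction replicate 3 (adjusted p = 0.052 to 0.138). Six4, of muscle and placode development, was at 36.7, 41 and 40.7 CPM in Mock, 58.9, 49.2 and 55.9 in Auxin, with 58.1, 60.2 and 57.8 in Re-introduction. Its rise of 0.47 in Auxin (adjusted p = 0.00011) turned to -0.0868 with the length trend removed and to -0.135 with the length and GC trends removed, and that of 0.57 in Re-introduction (adjusted p = 3.31e-05) to -0.0221 with both removed. Six4 has 10855 bases of exon, so its direction rests on how exon length is treated. Six5 fell from 2.46 ± 0.337 to 1.49 ± 0.177 CPM in Auxin (-0.72, adjusted p = 0.000861) and was at 1.71 ± 0.133 CPM in Re-introduction.

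The 19 genes that were not tested were Nkx2-5, Nkx6-1, Lhx1, Lhx4, Lhx5, Lhx8, Lhx9, Lbx1, Dlx3, Six2, Six3, Six6, Irx1, Irx4, Irx6, Pitx3, Emx1, Emx2 and Alx4. They include regulators of heart (Nkx2-5), pancreas and motor neurons (Nkx6-1), kidney and head (Lhx1), and eye and forebrain (Six3 and Six6). None reached more than 18 counts in any library, and their summed level was 0.923 to 1.12 CPM in Mock, 0.708 to 0.951 in Auxin and 0.468 to 0.74 in Re-introduction. Pitx3, a lens and dopamine neuron factor, had 26 counts over the Mock libraries and 0 over the Auxin libraries. Set against a floor of 3 counts over the group, that is 7.63-fold lower, and its single count in Re-introduction gave a ratio of 20.8 (95% interval 3.42 to 854). Irx4, of heart ventricle, had 21 counts in Mock, 7 in Auxin and 0 in Re-introduction, against the floor 5.61-fold lower than Mock. Six3 had 2, 9 and 5 counts, a ratio of 5.11 (1.06 to 48.6) between Auxin and Mock. It shares exon sequence with Six3os1 on the opposite strand, which had 4 counts in Mock and 64 in Auxin. Six6 shares exon sequence with 4930447C04Rik on the opposite strand, which had 3650 counts in Mock and 12711 in Auxin. Lbx1 had 0, 2 and 8 counts, 3.33-fold higher in Re-introduction than the floor set for Mock. The intervals cover counting error only, and since mates are counted separately the number of independent fragments is smaller. Folds against the floor take the count of the other group as exact, so they are not lower limits. Irx1 had 17, 37 and 4 counts in Mock, Auxin and Re-introduction, and in CPM the libraries of no pair of groups overlapped. Against the floor, Lhx1 was 2.64-fold lower in Auxin (0 counts) than in Mock (9), and Alx4 3.64-fold lower in Re-introduction (0 counts) than in Auxin (12). Lhx1 was not called in the edgeR fit with no filter (adjusted p = 0.0549). Six2 had 33, 13 and 11 counts, with every Mock library above both other groups in CPM. In the edgeR fit with no filter, the calls among the 19 were Pitx3 lower in Auxin against Mock (adjusted p = 0.00296), Alx4 (adjusted p = 0.0341) and Irx1 (adjusted p = 0.0064) lower in Re-introduction against Auxin, and, in Re-introduction against Mock, Irx4 (adjusted p = 0.00392) and Pitx3 (adjusted p = 0.0175) lower and Lbx1 higher (adjusted p = 0.0473). Of all 32989 genes in that fit, 15699, 10437 and 14224 were called in these 3 comparisons, in the same order.

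Several of the homeobox genes lie near each other, which allowed neighbours to be set side by side. Irx3 and Irx5 are 556 kb apart on chromosome 8, and Irx3 rose in Auxin while Irx5, at 0.55 (adjusted p = 0.187), was not called. Without Mock replicate 2 the Irx5 difference was 0.97 (adjusted p = 0.0363, edgeR). Irx2 lies 665 kb from Irx1 and 626 kb from Irx4 on chromosome 13. It held 2991 counts in Mock, while Irx1 and Irx4 were not tested. Dlx5 and Dlx6 are 9.24 kb apart on chromosome 6, and Dlx6 (0.60, adjusted p = 0.318, edgeR) was not called in Auxin against Mock. Dlx1 and Dlx2, 9.43 kb apart on chromosome 2, were both uncalled in every comparison. Dlx4, which is 15.2 kb from the untested Dlx3, and Six4, which is 155 kb from the untested Six6, each had a neighbour with hardly any counts. Six3 and Six2 lie 55 kb apart on chromosome 17, Tlx1 and Lbx1 75.7 kb apart on chromosome 19. Whether 2 neighbours differed from each other in their change was not tested.

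**Figure D4:**
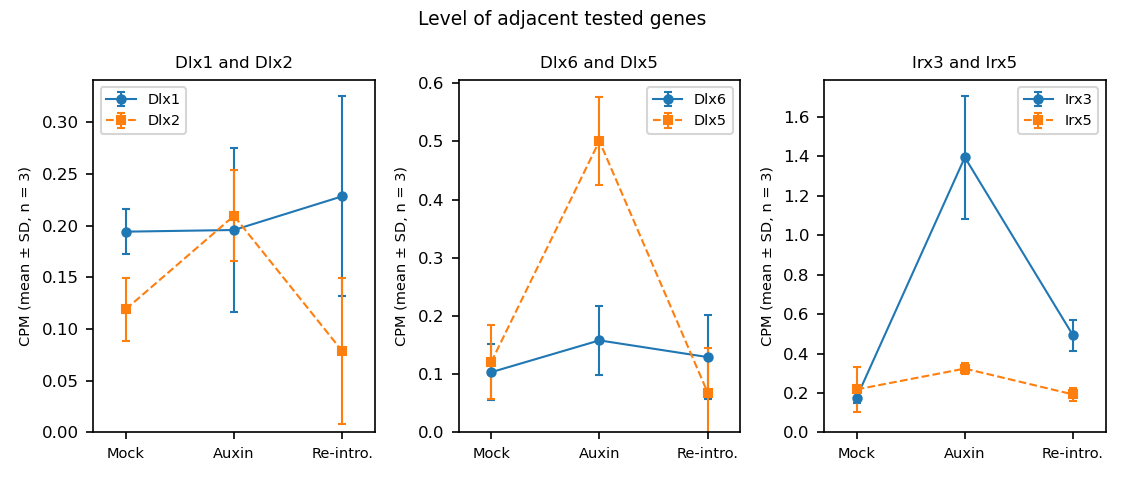
Mean level ± SD (CPM, n = 3) of 3 pairs of adjacent tested genes in Mock, Auxin and Re-introduction, on linear axes. Irx3 reaches 1.4 CPM in Auxin beside 0.324 CPM for Irx5, and Dlx5 reaches 0.501 CPM beside 0.158 CPM for Dlx6.

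The wider family of non-Hox homeobox genes was examined through a separate list of 73 genes, of which 41 were tested. In Auxin against Mock 29 of the 41 were called, 20 higher and 9 lower, beside 73.2% of all tested genes (38.4% higher, 34.8% lower). Their median log2 fold change was 0.73, beside 0.05 over all tested genes. In Re-introduction against Auxin 24 were called (7 higher, 17 lower) beside 50.9% of all tested genes (25.5% higher, 25.5% lower). The median was -0.50 beside 0.003. In Re-introduction against Mock 29 were called (14 higher, 15 lower) beside 68.1% (34.7% higher, 33.4% lower). The median was -0.02 beside 0.03. The largest falls in Auxin were Hmx1, from 51 counts to 2 (ratio 22.5, 95% interval 5.91 to 190), Evx1, from 3.63 to 0.409 CPM, and Phox2a (-1.88). Evx1, which like Mixl1 marks the primitive streak, was at 2.11 CPM in Re-introduction (2.37 against Auxin). The largest rises were Nkx2-3, from 1 count to 33 (ratio 37.5, 6.27 to 1520), Hlx, from 4 to 52 counts, and Onecut2, from 1.35 to 13 CPM. Onecut2, a liver and neural factor, stood at 18.9 CPM in Re-introduction, called higher than in Auxin (0.53, adjusted p = 0.0269, edgeR).

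Markers of other cell types moved between groups too. Summed over 9 primitive endoderm markers, levels were 34.7 to 36.7 CPM in Mock, 57.1 to 58.7 in Auxin and 50.2 to 52.9 in Re-introduction, with none at 0. Over 9 trophoblast markers they were 140 to 141, 225 to 245 and 255 to 267 CPM, with Elf5 at 0 in a library. Most of that sum came from Tead4 (63.9, 97.6 and 108 CPM), Eomes (35.4, 25.6 and 66.9) and Tfap2c (27.2, 86.6 and 45). Over 8 fibroblast markers the summed levels were 192 to 211, 70.7 to 81.5 and 175 to 183 CPM, with Col3a1, Postn, Lum and Dcn at 0 in a library. Vim made up most of that sum, at 180 CPM in Mock, 32.8 in Auxin and 140.5 in Re-introduction, while Thy1 was at 17.9, 41.2 and 37.5 CPM. Of these markers, 9 primitive endoderm, 8 trophoblast and 4 fibroblast ones were tested. In Auxin against Mock 8, 6 and 1 of them were called higher, and 1, 2 and 2 were called lower. Over all tested genes 38.4% were called higher and 34.8% lower. The trophoblast markers called lower were Ascl2 and Eomes. The part of these lists in the homeobox results was not tested.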

How the data were processed

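RNA from 9 libraries of Suz12-AID J1 cells was analysed. Unnormalised counts of reads were deposited for each gene, made with featureCounts 2.0.6 over exons of an mm10 annotation, paired-end mode, without a strand setting, per the file headers. Each mate of a pair was counted, since pair counting was not requested. By that tool's defaults, reads mapping to several genes or places are dropped, so counts are less certain for the 16 of the 56 genes whose exons overlap those of another gene. Trim Galore 0.6.10, FastQC 0.12.1, Bowtie2 2.5.3 and SAMtools 1.20 are also named in the submitters' processing notes.

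Groups came from the sample titles. Genes were filtered with filterByExpr, scaled with TMM factors and fitted in 1 edgeR 4.0.16 quasi-likelihood model of all 9 libraries with group as the only term (R 4.3.3, two-sided, Benjamini-Hochberg adjustment over 20838 genes). Standard errors were derived from the F statistic. On simulated counts with 200 genes changed 2-fold, the test recovered 75%, 71.5% and 74.5% of them in Auxin against Mock, Re-introduction against Auxin and Re-introduction against Mock, with 7.98%, 5.3% and 8.59% false calls. The simulation changed only 200 of 20838 genes, up or down at random, and held no trend with exon length. In the data 73.2%, 50.9% and 68.1% of genes were called, so these rates need not hold there. P-values measure the spread between these libraries. Alternatives were DESeq2 1.42.0 size factors, total counts alone, no filter, at least 1 CPM in 3 libraries, the DESeq2 Wald test, a replicate block, removal of length or of length and GC trends per library, halved counts, and leaving out each library. A gene that fails an alternative's filter has no value there, which leaves 13 or 14 of 15 alternatives for some.

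Values of every library are given for the 8 largest called changes without overlap in each comparison and for the 6 highest levels per exon length in Mock. Genes within 1 Mb of each other are described by neighbourhood. The genes and lists were chosen with earlier results of these data known. Upstream sequences are from RefSeq (GRCm38.p6, 39 of 56 genes matched by symbol), and gene types and GC content from GENCODE M21. Positions of genes are taken from the deposited tables (mm10). Intervals for ratios of counts are exact binomial (Clopper-Pearson) at 95%. The result of 1 further marker list is not reported here.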

Additional observations from a re-analysis of the deposited data

How the results depend on the processing

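Of the genes called, 19 of 24 kept direction and call under every alternative in Auxin against Mock, 13 of 19 in Re-introduction against Auxin and 9 of 20 in Re-introduction against Mock. The counts of all tested genes called stayed within 1.5 times their values. With at least 1 CPM in 3 libraries fewer of the homeobox genes were tested, and the called numbers became 7 higher (5 of them at least 2-fold) in Auxin against Mock, 6 lower (2 at least 2-fold) in Re-introduction against Auxin, and 9 lower in Re-introduction against Mock. With length and GC trends removed, 7 were lower in Re-introduction against Mock. Leaving out single libraries gave 3 to 5 genes at least 2-fold higher in Re-introduction against Auxin, the 5 without Auxin replicate 2. Six4 in Auxin against Mock turned to -0.0868 (length) and -0.135 (length and GC), and in Re-introduction against Mock to -0.0221 (length and GC). Hhex in Auxin against Mock turned to 0.224 (length) and 0.239 (length and GC). The cause was not tested.

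Replicate numbers are shared by the groups, but samples of the same number did not consistently deviate together. Their correlations were -0.546, -0.51 and 0.45 in Auxin against Mock, -0.0539, -0.149 and -0.31 in Re-introduction against Auxin, and 0.0846, 0.197 and -0.169 in Re-introduction against Mock. Samples of different number also correlated in Auxin against Mock, from -0.589 (Auxin 3 with Mock 1) to 0.652 (Auxin 2 with Mock 1). The numbers were therefore not taken to pair the samples. With the replicate number as a block, 14808, 9829 and 13639 genes were called in the 3 comparisons, and the calls of Dlx4 (Auxin against Mock), Pitx1 and Tlx1 (Re-introduction against Auxin) and Cdx4 (Re-introduction against Mock) were lost. The genes that failed the filter were tested only in the fit with no filter.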
